A study of Mus musculus with 18 samples.

Results

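Mouse embryonic fibroblasts (MEF) carrying an activator construct were compared with MEF carrying the control construct, both before any doxycycline was given. The comparison took 6 of the 18 libraries of the study, 3 of the uninduced activator line (dCas9-VPR, a transcriptional activator) and 3 of the uninduced control line (dCas9-control, with no effector named), and covered all 16216 genes that passed a filter on low counts. dCas9 is a Cas9 that binds DNA through a guide RNA without cutting it, and in every line the construct was inducible and aimed at the major satellite repeats (MSR). Neither group had received doxycycline, and every line grew in the same medium, with serum free of tetracycline and with hygromycin. The remaining libraries were 3 of an uninduced repressor line (dCas9-KM) and 3 of each line after doxycycline, given at 10 ng/ml for 6 h to the activator line, at 100 ng/ml for 24 h to the repressor line and at 10 ng/ml for 24 h to the control line. The labels do not say whether a line is a single clone, nor whether libraries of a group came from separate cultures. A p-value for a gene or a sum of genes reflects scatter within groups of 3 libraries. In the main fit that scatter was pooled over all 6 groups of the study, induced ones included, and it may be technical. Each construct was present in 1 line, so a difference in the history of the lines and expression of the construct without doxycycline cannot be told apart.

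Major satellite repeats are long tandem arrays beside mouse centromeres, packed by histone and DNA methylation into heterochromatin, and give little RNA in most cells. VPR joins several activation domains of viral and cellular origin and recruits the transcription machinery to the site where dCas9 binds. Inducible promoters can give some product without the inducer, which is called leak, and the RNA of the targeted repeat is its most direct readout in a gene table. Cell lines kept apart in culture also come to differ in genes unrelated to any construct.

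Counts per gene were compared, and levels are given as CPM, counts scaled to the size of each library. The uninduced activator libraries held 25262912, 23878498 and 16006476 counts and the uninduced control libraries 20978690, 22780863 and 14928765 counts. A gene is called higher or lower where its p from edgeR (quasi-likelihood, adjusted by Benjamini and Hochberg over all genes tested) was under 0.05. Gm26917, a noncoding gene model, took 10.8, 12.1 and 11.3% of counts in the activator libraries and 10.9, 11.6 and 10.7% in the control libraries. The second principal component of all 18 libraries, with 3.34% of the variance, separated the uninduced activator libraries from the uninduced control libraries.

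In the uninduced activator line 1447 genes were higher and 1710 lower than in the uninduced control line. These are 8.92% and 10.5% of the genes tested and 19.5% together. Of the 12408 protein-coding genes tested, 10.9% were higher and 13.1% lower. Most differences were small. Of the 3157 genes called, 230 differed by at least 1.5-fold and 92 by at least 2-fold, and the median absolute log2 fold was 0.20. Of those 92 genes, 57 lay under 1 CPM in both lines, and 4 reached 5 CPM in the higher line. The libraries of both lines did not overlap for 33.4% of the genes tested, whether called or not. Without control replicate 1 the number of higher genes was 929. The uninduced repressor line, set against the same 3 control libraries, had 1.56% of genes called, 140 higher (0.863%) and 113 lower (0.697%). Set against the uninduced repressor line, the uninduced activator line had 21.1% of genes called, 1573 higher (9.7%) and 1853 lower (11.4%). These comparisons share libraries, so their values are given side by side and not as separate evidence.

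**Figure D1:**
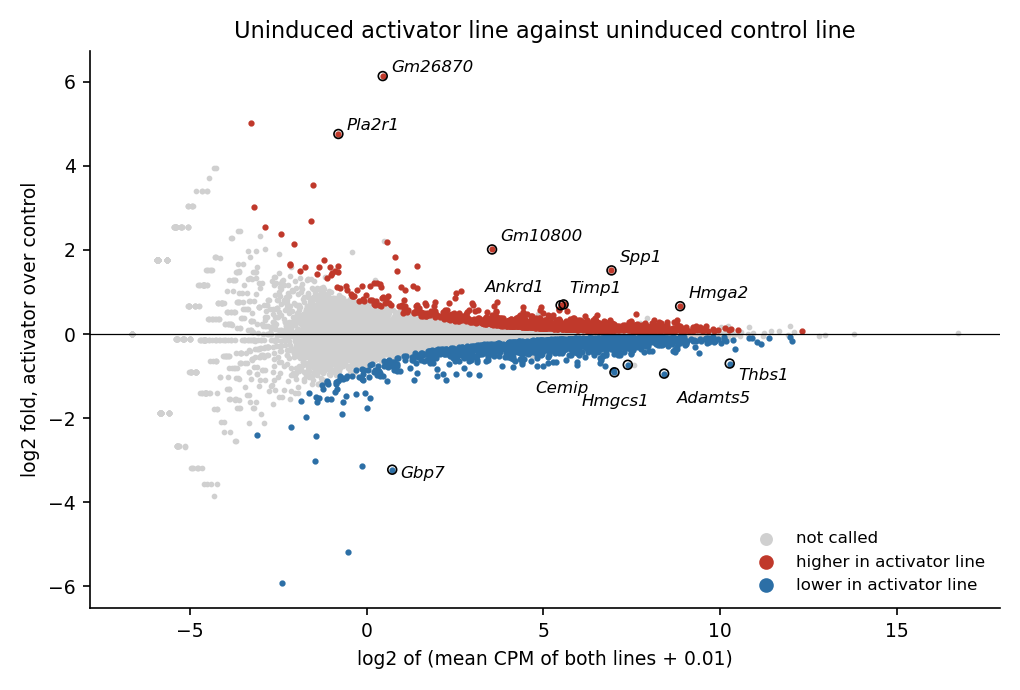
Each point is 1 of the 16216 genes tested, by its level (log2 of the mean CPM of both lines plus 0.01) and its log2 fold, uninduced activator line over uninduced control line, with called genes in red (1447 higher) and blue (1710 lower) and the rest in grey. Of the called genes that reach 5 CPM in the higher line, 4 lie beyond 1 log2 unit, among them Gm10800 and Spp1 above and Ccser1 below, and the points at the left edge have so few counts that their fold depends on the prior count of the fit.

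RNA of the targeted repeat was higher in the uninduced activator line. Transcripts of Gm26870, a noncoding gene model of satellite sequence on the minus strand at chr9:3000282-3038313 (GRCm38, GENCODE M21), defined the gene models summed below. The major satellite unit is therefore shown here from the annotation, as the first unit of a spliced transcript of Gm26870. Along this transcript the unit recurs in 4 copies, and the 21 positions that vary between copies are in capitals while the 213 shared positions are in lower case.
Gm26870 unit: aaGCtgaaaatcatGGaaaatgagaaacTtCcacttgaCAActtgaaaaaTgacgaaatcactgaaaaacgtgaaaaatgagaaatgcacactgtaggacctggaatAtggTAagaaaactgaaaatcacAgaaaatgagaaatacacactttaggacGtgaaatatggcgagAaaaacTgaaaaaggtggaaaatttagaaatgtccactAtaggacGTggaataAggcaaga
The annotation held 13 gene models, Gm26870 included, with a transcript at least 50% covered by 15-base words of Gm26870 transcripts, read on either strand. Of these, 10 lie in the first assembled stretch of chromosome 9, 2 on chromosome 2 and 1 on chromosome 14. Because their sequences are nearly the same, a read can match several of them, and single members are less certain than the sum.

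The 13 models summed to 31.4, 30.2 and 33.0 CPM in the uninduced activator libraries, against 7.35, 7.86 and 5.84 CPM in the uninduced control libraries. All 3 activator libraries lay above all 3 control libraries, with 31.5 ± 1.39 against 7.02 ± 1.05 CPM on average (SD, n = 3 each). These levels rest on 818, 731 and 543 counts in the activator libraries and 158, 181 and 89 counts in the control libraries. The sum was 4.39-fold higher in the activator line (log2 2.13 ± 0.231 SE, 95% interval 1.63 to 2.64, edgeR adjusted p = 1.72e-05). That SE came from the fit of all 18 libraries. With only the 6 uninduced activator and control libraries the SE was 0.0758 (log2 2.13). An exact two-sided permutation test of the same CPM gave p = 0.1, the smallest that 3 against 3 libraries allow. In the uninduced repressor line the sum was 6.42, 5.50 and 5.92 CPM, from inside the range of the control libraries to just under it (repressor over control log2 -0.27, adjusted p = 0.837). After doxycycline the sum was 4783, 3954 and 3369 CPM in the activator line, against 2.63, 1.48 and 2.56 CPM in the control line (log2 10.83 ± 0.180 SE). The uninduced difference was therefore far smaller than the induced one, with a difference between both line contrasts of 8.70 log2 units (adjusted p = 1.19e-09). Of all genes tested, 63.7% passed that test of the difference.

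**Figure D2:**
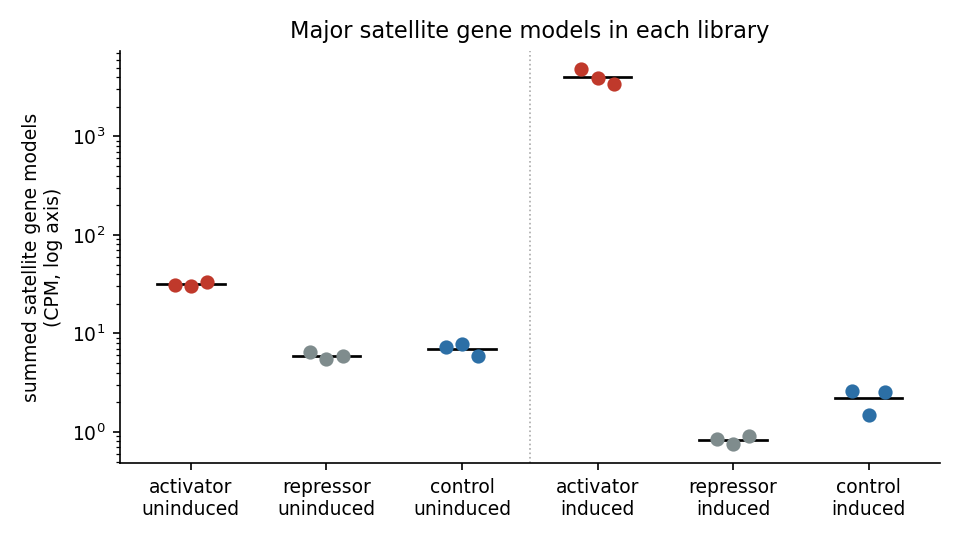
Each point is the summed CPM of the 13 satellite gene models in 1 library, on a log axis, and each bar is the mean of 3 libraries. The uninduced activator libraries (30.2 to 33.0 CPM) lie above the uninduced repressor and control libraries (5.50 to 7.86 CPM) and far below the induced activator libraries.

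Among the members, Gm10800 on chromosome 2 carried most of the counts, with 18.7, 17.7 and 20.4 CPM in the activator libraries, against 4.93, 5.17 and 3.48 CPM in the control libraries (log2 2.01 ± 0.284 SE, adjusted p = 1.95e-04). Its neighbour Gm10801 had 2.26, 2.52 and 2.61 CPM in the activator libraries and 0.558, 0.608 and 0.394 CPM in the control libraries (log2 2.18, adjusted p = 0.0321), and Gm21738 on chromosome 14 had 2.65, 2.44 and 3.16 CPM in activator libraries and 0.744, 0.782 and 0.722 CPM in control libraries (log2 1.83, adjusted p = 0.0341). Both lost the call when any 1 of the 6 libraries was left out (adjusted p up to 0.0948 and 0.103), although their libraries did not overlap. Gm26870, whose unit is printed above, had 186 counts over the activator libraries and 2 over the control libraries, a ratio of 83.8 with an exact 95% interval of 22.9 to 697, which covers counting error only. Gm17535 had 13 counts in the activator libraries and none in the control libraries, so it was at least 3.90-fold higher against a floor of 3 counts over the group. These 5 models were called higher and none was called lower. The other 8 did not pass the test, among them Gm10722 (1.23, 0.993 and 1.40 CPM in activator libraries, 0.326, 0.347 and 0.197 CPM in control libraries, adjusted p = 0.0555) and Gm11168 (2.11, 2.36 and 2.43 CPM in activator libraries and 0.465, 0.434 and 0.590 CPM in control libraries, adjusted p = 0.188), whose libraries also did not overlap. The fit pools scatter over all 6 groups, induced ones included. Gm11168 had 303, 214 and 167 CPM in the induced activator libraries. How far such scatter shaped the calls of single models was not tested. Gm10720 had no count in the activator libraries and 1 in the control libraries.

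The gene table holds no row for the construct, so its RNA before doxycycline was not analysed here. Endogenous genes related to parts of the constructs, taken as a list, had a median log2 fold of -0.027 over the members tested. Rela, whose protein is an NF-kB subunit that lends an activation domain to VPR, had 68.9, 67.6 and 66.5 CPM in the activator libraries and 67.0, 70.9 and 70.6 CPM in the control libraries (log2 -0.04, adjusted p = 0.622). Of the 6 tested genes of this list, 2 were lower and none higher, beside 10.5% lower and 8.92% higher of all genes tested. The 2 lower genes were the acetyltransferase genes Ep300 (log2 -0.10) and Crebbp (log2 -0.08). Crebbp lost the call in 6 of 17 other settings (adjusted p up to 0.127).

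Apart from Gm10800, the largest log2 fold among called genes with at least 5 CPM in the higher line was that of Spp1, which encodes the secreted matrix protein osteopontin. Spp1 had 175, 179 and 188 CPM in the activator libraries, against 64.4, 60.2 and 65.6 CPM in the control libraries, with no overlap (log2 1.51 ± 0.0356 SE, adjusted p = 6.46e-53). In the induced libraries, which share none with these, it was higher as well (log2 1.18). The 12 largest of that kind also included Synm, which encodes an intermediate filament protein (0.98), Tnfaip2 (0.87), the cytokine gene Il33 (0.77), the phosphatase gene Ppm1h (0.74) and the matrix gene Spon2 (0.73). Il33 varied widely between libraries, with 14.8, 11.9 and 22.2 CPM in the activator libraries and 9.91, 7.78 and 10.4 CPM in the control libraries, and lost its call in 8 of 17 other settings of the analysis (adjusted p = 0.0357 here, up to 0.181 there). The list closed with Ankrd1, a target of the YAP coactivator (0.70), Pkp1, a desmosome gene (0.69), Timp1, an inhibitor of matrix metalloproteases (0.69), and the metallothionein gene Mt2 (0.68). Timp1 had 54.1, 55.5 and 56.8 CPM in the activator libraries and 33.5, 33.7 and 36.5 CPM in the control libraries. Ankrd1 had 60.1, 57.7 and 59.4 CPM in activator libraries and 36.5, 34.9 and 37.7 CPM in control libraries, again without overlap.

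Of the 12 smallest log2 folds in the activator line, 3 belonged to genes of matrix turnover, which were also the most abundant of the 12. Adamts5, which encodes a protease that cleaves the proteoglycan aggrecan, had 240.2, 230.5 and 233.6 CPM in the activator libraries, against 451, 454 and 449 CPM in the control libraries (log2 -0.94 ± 0.0266 SE, adjusted p = 4.79e-47). Its neighbour on chromosome 16, Adamts1, had 87.8, 85.5 and 92.4 CPM in activator libraries and 156, 164 and 163 CPM in control libraries (log2 -0.87, adjusted p = 1.02e-15). Cemip, whose protein takes part in hyaluronan breakdown, had 86.6, 92.7 and 90.5 CPM in the activator libraries and 168, 172 and 166 CPM in the control libraries (log2 -0.91, adjusted p = 2.03e-40). None of these 3 genes overlapped between the lines. The other 9 of the 12 lowest were less abundant. They were Ccser1 (log2 -1.08), the retinal reductase gene Dhrs3 (-0.99), the cadherin gene Dchs2 (-0.96), Pkhd1l1 (-0.96), the phosphatidate phosphatase gene Lpin1 (-0.96), smooth muscle actin Actg2 (-0.95), the glypican gene Gpc4 (-0.82), Fdps of the sterol pathway (-0.81) and Etl4 (-0.79).

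Genes of cholesterol synthesis and uptake were lower together. Of 28 tested, 26 were lower and none higher, with a median log2 fold of -0.44 beside 0.0041 over all genes tested. The pathway makes cholesterol from acetyl-CoA, and its genes share control by the SREBP transcription factors, which are processed to their active form when membrane sterol is low. At its head, Hmgcs1, which makes HMG-CoA, had 129, 123 and 127 CPM in the activator libraries, against 213, 204 and 212 CPM in the control libraries (log2 -0.73 ± 0.0357 SE, adjusted p = 1.50e-22). All activator libraries lay below all control libraries for this gene.

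Enzymes of the later steps moved in the same direction. Idi1, an isomerase of the isoprenoid steps, averaged 20.9 ± 0.973 CPM in the activator libraries and 35.2 ± 1.35 CPM in the control libraries (SD, n = 3 each; log2 -0.76). Fdps, which makes farnesyl diphosphate, averaged 4.94 ± 0.0723 CPM in activator libraries and 8.70 ± 0.362 CPM in control libraries (log2 -0.81). Sqle, which oxidises squalene, averaged 150.5 ± 5.52 CPM in activator libraries and 208 ± 4.90 CPM in control libraries (log2 -0.47). Msmo1, a demethylase of sterol intermediates, had 79.6, 70.4 and 72.6 CPM in the activator libraries, against 122, 119 and 117 CPM in the control libraries (log2 -0.69, adjusted p = 1.88e-22). Regulators of the pathway were lower as well. Srebf2, the SREBP gene most tied to sterol synthesis, had a log2 fold of -0.27, while Insig1, which holds SREBP back in the endoplasmic reticulum, had -0.55. Srebf1 (73.8, 74.1 and 72.4 CPM in activator libraries, 69.6, 73.4 and 69.8 CPM in control libraries) and Ebp did not pass the test. The fatty acid genes Fasn (-0.19), Acaca (-0.11) and Scd1 (-0.14) were lower by less than Scd2 (-0.36).

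In the uninduced repressor line, set against the same control libraries, 2 of the 28 genes were called, both higher, with a median log2 fold of 0.08. Set against the repressor line, the activator line had 26 of the 28 lower, with a median of -0.55. In the induced libraries 19 were lower and 5 higher in the activator line than in the control line, where 76.1% of all genes tested were called.

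**Figure D3:**
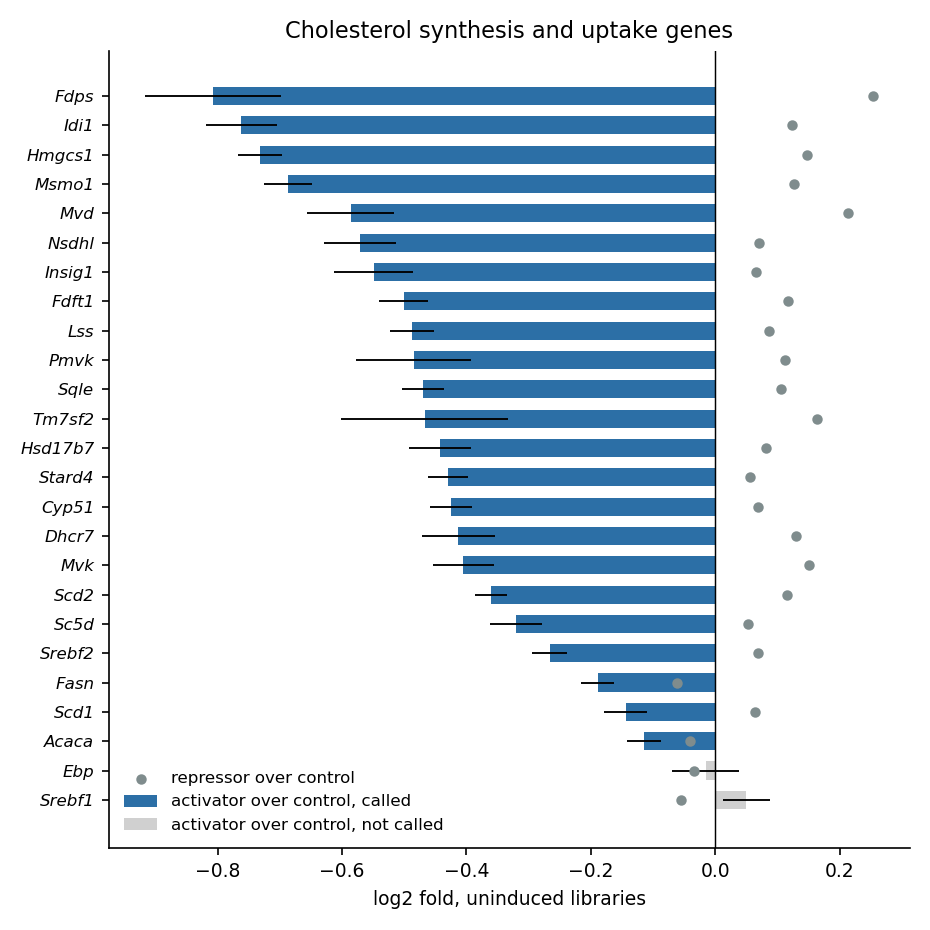
Bars give the log2 fold of 25 of the 28 tested cholesterol genes in the uninduced activator line over the uninduced control line, with the SE as a line (called genes in blue, Ebp and Srebf1 in grey), and grey points give the uninduced repressor line over the same control libraries. The 23 called genes shown extend to the left, from Acaca at -0.11 to Fdps at -0.81.

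The sequences before the start sites of 3 of these genes are shown because the members moved together. They are the 250 bases before the start, from RefSeq (GRCm38.p6), in the direction of the gene. Capitals mark TCACNCCAC, a form of the sterol regulatory element, and CCAAT, the box bound by NF-Y, each on either strand, so CCAAT on the other strand reads as ATTGG. No marked match overlaps another.
Hmgcs1, plus strand, chr13:119690101-119690350: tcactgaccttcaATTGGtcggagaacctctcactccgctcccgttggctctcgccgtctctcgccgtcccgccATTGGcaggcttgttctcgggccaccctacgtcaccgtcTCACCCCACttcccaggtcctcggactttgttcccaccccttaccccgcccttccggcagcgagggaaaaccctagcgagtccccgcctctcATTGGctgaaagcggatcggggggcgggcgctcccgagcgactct
Idi1, plus strand, chr13:8885356-8885605: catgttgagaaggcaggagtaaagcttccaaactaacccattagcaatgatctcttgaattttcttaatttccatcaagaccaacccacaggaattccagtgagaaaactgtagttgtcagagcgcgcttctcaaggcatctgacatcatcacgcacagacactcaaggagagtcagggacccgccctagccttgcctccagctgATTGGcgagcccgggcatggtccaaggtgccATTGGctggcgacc
Msmo1, minus strand, chr8:64733579-64733828: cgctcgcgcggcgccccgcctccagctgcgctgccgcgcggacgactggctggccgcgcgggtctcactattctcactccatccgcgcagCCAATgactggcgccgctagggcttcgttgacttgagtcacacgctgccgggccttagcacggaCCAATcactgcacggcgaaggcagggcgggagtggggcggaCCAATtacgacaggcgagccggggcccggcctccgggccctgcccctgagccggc
Of the listed genes, 19 had an entry. CCAAT lay in a window of 18 of these 19 genes (94.74%), against 37.49% of all 27025 genes with an entry. Those 27025 genes were not limited to the genes tested here. Within the list, Acaca had no CCAAT and was lower, while Ebp and Srebf1 had it and did not pass the test. The sterol element lay in 1 of the 19, Hmgcs1, and in 1.22% of all genes. These matches describe letters in these windows and not binding.

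Signal receptors of growth factors were more often lower than higher. Of 46 tested, 24 were lower and 4 higher, beside 10.5% lower and 8.92% higher of all genes tested. The median log2 fold was -0.13. Fzd2, a Wnt receptor gene, had 78.2, 82.5 and 77.2 CPM in the activator libraries, against 106, 109.8 and 103 CPM in the control libraries (log2 -0.42, adjusted p = 1.89e-16). Igf1r, the receptor of insulin-like growth factors, had 228, 229 and 235 CPM in activator libraries and 274, 275 and 267 CPM in control libraries (log2 -0.24), and Ddr1, a collagen receptor gene, had a log2 fold of -0.27. Tgfbr2 (-0.24), Pdgfrb (-0.21), Egfr (-0.17) and Ptch1 (-0.26), receptors of TGF-beta, PDGF, EGF and hedgehog signals, were lower too. The 4 that were higher were the cytokine receptor genes Osmr (130.4, 132 and 133 CPM in activator libraries, 109, 103 and 99.5 CPM in control libraries, log2 0.34), Lifr (0.19) and Il1r1 (0.29), and Ror1 (0.43), a Wnt receptor.

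Of 41 growth factor genes tested, 15 were lower and 5 higher, beside 10.5% lower and 8.92% higher of all genes tested. Their median log2 fold was -0.15. Tgfb2 had 48.4, 47.4 and 47.1 CPM in the activator libraries, against 76.2, 77.1 and 74.5 CPM in the control libraries (log2 -0.67 ± 0.0396 SE, adjusted p = 3.78e-25). Pdgfb (-0.49), Bmp4 (-0.51), Wnt5a (-0.43), Igf1 (-0.36) and the macrophage growth factor gene Csf1 (-0.30) were lower as well. Among those higher were Fgf2 (0.40), Hbegf (0.30), Tgfb1 (0.27) and Igf2 (0.19). Among adaptors of the insulin pathway, Irs1 had 239, 231 and 231 CPM in the activator libraries and 305, 312 and 307 CPM in the control libraries (log2 -0.40, adjusted p = 1.56e-19), while Igfbp4, which binds the ligand, had 289, 295 and 298 CPM in activator libraries and 248, 251 and 236 CPM in control libraries (log2 0.26). Of the Notch, Wnt and hedgehog targets, 6 of 18 were lower and 1 higher, led by the Notch ligand gene Jag1 (77.3, 84.7 and 78.9 CPM in activator libraries, 118, 117 and 122 CPM in control libraries, log2 -0.56).

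Targets of ERK signalling split. Of 33 tested, 10 were higher and 9 lower, beside 8.92% higher and 10.5% lower of all genes tested. The median log2 fold was 0.08. The ETS factor genes Etv5 (26.4, 26.3 and 26.1 CPM in activator libraries, 15.6, 17.7 and 17.4 CPM in control libraries, log2 0.64) and Etv4 (61.6, 61.5 and 59.5 CPM in activator libraries and 40.9, 41.0 and 42.6 CPM in control libraries, log2 0.56) were higher, as were the ERK phosphatase genes Dusp6 (102, 98.1 and 102 CPM in activator libraries and 78.7, 74.9 and 76.9 CPM in control libraries, log2 0.39) and Dusp4 (0.20) and the AP-1 gene Fosl1 (0.46). The feedback inhibitor gene Spry1 was lower (15.8, 13.2 and 13.7 CPM in activator libraries, 22.2, 23.5 and 21.5 CPM in control libraries, log2 -0.65), as were Dusp1 (-0.66) and the AP-1 genes Fosl2 (-0.27) and Jun (-0.25). Of the NF-kB targets, 10 of 25 were lower and 5 higher, with the chemokine gene Cxcl1 at -0.57 and the cyclooxygenase gene Ptgs2 at 0.57.

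Of 30 genes of the NRF2 and glutathione list, which answer to oxidants and metals, 11 were higher and 1 lower. By DESeq2, 7 were higher. Over all genes tested, the edgeR shares were 8.92% higher and 10.5% lower. Srxn1, which reduces oxidised peroxiredoxin, had 69.5, 72.2 and 68.2 CPM in the activator libraries, against 55.0, 55.7 and 57.4 CPM in the control libraries (log2 0.33, adjusted p = 1.41e-10). Thioredoxin reductase Txnrd1 (0.17) and the metallothionein gene Mt1 (0.34) were higher, and the malic enzyme gene Me1 was lower (-0.14). Of 31 chaperone genes 11 were higher and 3 lower, with Hyou1 of the endoplasmic reticulum at 0.19, mitochondrial Hspd1 at 0.16 and Herpud1, of protein disposal, at -0.25.

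Matrix and contractile genes differed in both directions. Of 53 collagen and matrix genes, 12 were higher and 15 lower, beside 8.92% higher and 10.5% lower of all genes tested. Thbs1, which encodes thrombospondin, had 947, 929 and 960.3 CPM in the activator libraries, against 1503, 1576 and 1535 CPM in the control libraries (log2 -0.70 ± 0.0273 SE, adjusted p = 1.32e-34). The adhesion modulator tenascin, Tnc, was higher (53.3, 48.2 and 55.0 CPM in activator libraries, 33.7, 34.3 and 37.9 CPM in control libraries, log2 0.57), as were the proteoglycan gene Vcan (0.33) and the basement membrane gene Nid1 (0.28). Of 24 contractile genes and YAP targets, 11 were lower and 2 higher. Acta2, smooth muscle actin, had 369, 352 and 368 CPM in the activator libraries, against 484, 490.5 and 495 CPM in the control libraries (log2 -0.43, adjusted p = 8.86e-23), and Tagln (-0.28), Amotl2 (-0.29) and the kinase gene Lats2 (-0.27) were lower too. The 2 higher members were Ankrd1 and Smtn (0.11). In the same libraries the muscle markers had 9 tested members, 1 of them higher (Tnnt2, call lost in 1 of 17 other settings), and summed to 11.4 to 14.0 CPM in the activator libraries and 9.30 to 11.2 CPM in the control libraries. Myod1 and Myf5 had no count in either line, and a part of muscle-like cells in the contractile genes was not tested.

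Transcription factors of mesenchymal position and lineage were lower more often than higher, with 16 lower and 4 higher of 62 tested. Sox11 (25.3, 25.2 and 26.7 CPM in activator libraries, 37.5, 35.4 and 34.6 CPM in control libraries, log2 -0.49), Tcf7l2 (-0.36), Meis2 (-0.29) and Wt1 (-0.29) had the lowest adjusted p. Sox9, a cartilage factor gene, was among the 4 that were higher (0.57). Of 19 Hox genes, which mark position along the body, none was higher and 3 were lower (Hoxb9, Hoxb2 and Hoxc13, log2 -0.35, -0.27 and -0.25), beside 10.5% lower of all genes tested. Each of these 3 lost the call in some of 17 other settings, Hoxc13 in 8 (adjusted p up to 0.128), Hoxb2 in 4 (up to 0.153) and Hoxb9 in 1 (0.0517). None of 27 clustered protocadherin genes and none of 5 tested X and Y dosage markers was called. Of these, Ddx3y had 75.4, 78.4 and 74.2 CPM in the activator libraries and 76.1, 71.8 and 77.1 CPM in the control libraries (log2 0.03), and Xist was under 1 CPM in all 6 libraries.

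Of 49 heterochromatin and silencing factors, 8 were higher and 4 lower. The architectural factor genes Hmga2 (579.7, 571 and 576 CPM in activator libraries, 361, 368 and 361 CPM in control libraries, log2 0.66 ± 0.0282 SE, adjusted p = 3.40e-34) and Hmga1 (108, 105 and 103 CPM in activator libraries and 76.9, 75.8 and 79.2 CPM in control libraries, log2 0.45), whose proteins bind AT-rich DNA, differed most. Cbx5, which encodes a heterochromatin protein, was lower (809.9, 797 and 798 CPM in activator libraries, 913, 888 and 872 CPM in control libraries, log2 -0.15). In germline and cleavage-stage genes, often held silent by DNA methylation, 11 of 51 in the table were tested and 1 was higher, the germ cell helicase gene Ddx4 (3.53, 3.599 and 2.98 CPM in activator libraries, 1.63, 1.17 and 1.97 CPM in control libraries, log2 1.14). Of 32 imprinted genes 8 were lower and 2 higher, with Peg3 at -0.44 and Igf2 at 0.19. Of 44 genes of G1/S and replication 1 was higher and 3 were lower. Of 40 genes of mitosis 2 were higher and 8 lower. These counts stand beside 8.92% higher and 10.5% lower of all genes tested, and 10.9% and 13.1% of protein-coding genes.

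Of 28 tested genes listed under p53 targets and the Cdkn2 locus, none was higher and 5 were lower. Over all genes tested the shares were 8.92% higher and 10.5% lower. Among the 5 were the cyclin-dependent kinase inhibitor genes Cdkn1b (-0.21) and Cdkn2b (-0.21, call lost in 1 of 17 other settings) and the antiproliferative gene Btg2 (-0.35). The list also holds cell cycle inhibitor genes, so these counts are not of p53 targets alone. Of 29 ATF4 targets, which answer to amino acid shortage, 8 were lower and 2 higher, with Chac1 at -0.29, Ddit4 at -0.39 and the cystine transporter gene Slc7a11 at 0.48. Of 30 genes of glycolysis and hypoxia, 8 were lower and 1 higher, with Bnip3 at -0.38 and Egln1, an oxygen sensor gene, at -0.23. Of 27 interferon-stimulated genes 6 were lower and 1 higher, and of 16 TGF-beta and BMP targets 5 were lower and 2 higher, with the BMP antagonist gene Nog at -0.41 and the inhibitory Smad6 at -0.39.

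Of 34 matrix proteases and inhibitors, 6 were higher and 7 lower, beside 8.92% higher and 10.5% lower of all genes tested. Beside Adamts5 and Adamts1, Adamts6 (-0.43) and Adamts4 (-0.41) were lower, while Plaur (0.33), a receptor of a plasminogen activator, was higher. Of 26 cadherin and integrin genes 6 were lower and 2 higher, with Alcam at -0.44, Itga1 at -0.53, the hyaluronan receptor gene Cd44 at 0.28 and Itga5, a fibronectin receptor subunit, at 0.23. Of 15 mitochondrially encoded genes, only the rRNA genes mt-Rnr1 (-0.35) and mt-Rnr2 (-0.58) were called, both lower, and both lost the call in 9 of 17 other settings. The libraries were depleted of rRNA, so what is left of it depends on that step.

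**Figure D4:**
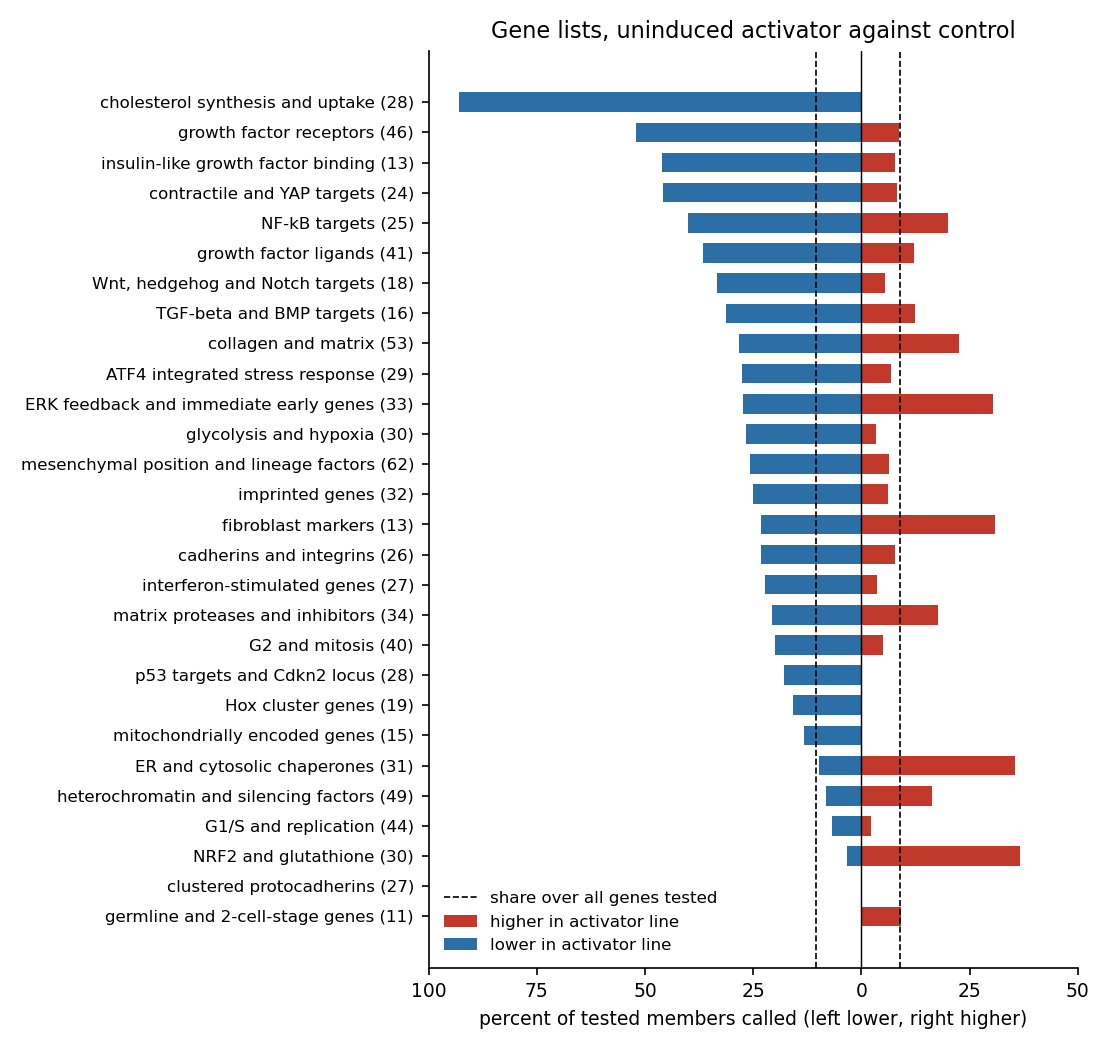
Each row is a gene list with the number of members tested in brackets, and bars give the percent of those called lower (blue, to the left) and higher (red, to the right) in the uninduced activator line. Dashed lines mark the shares over all genes tested, 10.5% lower and 8.92% higher. Among protein-coding genes alone the shares were 13.1% lower and 10.9% higher. Cholesterol synthesis has the longest bar, with 26 of 28 lower.

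The label fibroblast was checked against markers. The fibroblast markers summed to 21740.0 to 22031 CPM in the activator libraries and 21888 to 22443 CPM in the control libraries. Thy1 had no count in either line, and Fap had none in the activator line but some in the control line. Of 13 tested, 4 were higher, among them Prrx1 (log2 0.19), and 3 were lower, beside 8.92% higher and 10.5% lower of all genes tested. Among the lower was Vim (2144, 2109.9 and 2088 CPM in activator libraries, 2483, 2507 and 2501 CPM in control libraries, log2 -0.24). Bone and cartilage markers summed to 202 to 217 CPM in the activator libraries and 86.5 to 92.4 CPM in the control libraries. Without Spp1 the sums were 26.5 to 28.2 CPM in activator libraries and 26.3 to 26.9 CPM in control libraries, and the defining markers Ibsp and Dmp1 had no count in either line. Fat cell markers summed to 131 to 136 CPM in activator libraries and 161 to 168 CPM in control libraries, nearly all of it Lpl, a lipase gene. None of the 4 endothelial, 7 blood, 4 neural and 1 epithelial markers tested was called, beside 19.5% of all genes tested. Endothelial markers summed to 38.5 to 40.2 CPM in activator libraries and 42.1 to 42.4 CPM in control libraries, nearly all of it Flt1, while Tie1 and Cldn5 had no count in either line. Neural markers, nearly all Tubb3, summed to 35.8 to 38.3 CPM in activator libraries and 33.6 to 34.9 CPM in control libraries. The part of these cell types in the results was not tested. Each library is a bulk sample, so fewer cells of a type and less RNA per cell cannot be told apart.

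No gene without a count in the 3 libraries of one line reached 1 CPM in the other. The most abundant gene with no count in the control line was Creg2, with 29 counts over the activator libraries, which is at least 8.71-fold higher against a floor of 3 counts over the group. The reverse case was led by Gm15759 with 23 counts in the control libraries and by Actn2, which encodes a muscle actinin, with 22, so they were at least 8.51-fold and 8.14-fold lower in the activator line. Without control replicate 2, 1 gene passed that level with no count in the control line. With up to 3 counts allowed, 3 genes stood apart. Pla2r1, a phospholipase receptor gene, had 71 counts in the activator libraries and 2 in the control libraries (0.997, 0.951 and 1.34 CPM in activator libraries and 0, 0.0434 and 0.0656 CPM in control libraries, ratio 32.0, exact 95% interval 8.53 to 269). The tight junction gene Cldn18 was at 0.0383, 0 and 0.0608 CPM in the activator libraries, against 1.07, 1.303 and 1.64 CPM in the control libraries. The third was Gm26870 of the satellite models. Gbp7, an interferon-stimulated gene, had 0.192, 0.414 and 0.365 CPM in the activator libraries, against 2.61, 3.61 and 2.69 CPM in the control libraries (log2 -3.23, adjusted p = 1.27e-15), and the uninduced repressor line, with 0.637, 0.313 and 0.109 CPM, was low as well.

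The induced activator and control libraries share none with the uninduced ones and give the same contrast at another state, with 6 h of doxycycline in the activator line and 24 h in the control line. Of the 1447 genes higher before doxycycline, 792 were higher and 426 lower after it, and of the 1710 lower genes 1145 were lower and 331 higher. Over all genes tested, 38% were higher and 38.1% lower in the induced contrast. That split depends on scaling: with total counts alone the median log2 fold of all genes was -0.25 instead of -0.01, 3954 genes were higher and 8384 lower, and of the 1447 genes 530 were higher and 640 lower, while 1418 of the 1710 were lower and 121 higher. For the 10317 genes at 5 CPM or more in 1 of the uninduced lines, Pearson's r between both log2 folds was 0.33 and Spearman's rho 0.30, across genes that are not independent. Of the 42 genes lower by at least 1.5-fold at 5 CPM or more, 40 were lower after doxycycline too, also with total counts alone, among them Adamts5 (log2 -2.42), Thbs1 (-1.94) and Cemip (-2.34). Of the 16 higher by that much, 6 were higher and 7 lower after it (5 and 9 with total counts alone). In both scalings Spp1 (1.18) and Timp1 (0.74) were above the control line, whereas Hmga2 (-1.20) and Ankrd1 (-1.18) lay below it.

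**Figure D5:**
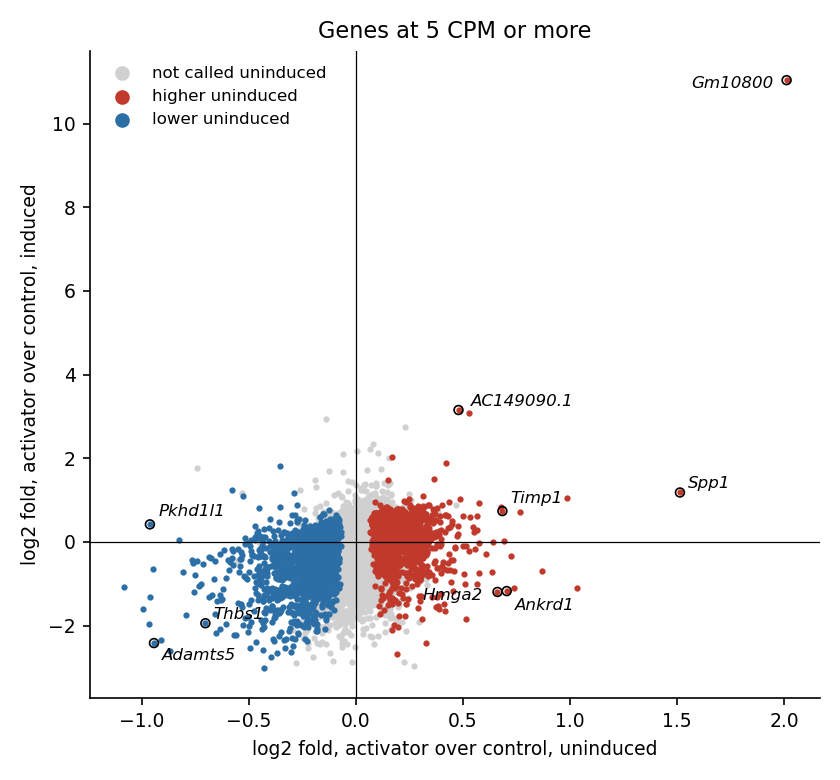
Each point is 1 of the 10317 genes at 5 CPM or more, by its log2 fold of the activator line over the control line without doxycycline (x axis) and with it (y axis), coloured by its call without doxycycline. Adamts5 and Thbs1 are low on both axes, Spp1 and Gm10800 are high on both, and Ankrd1 and Hmga2 lie to the right of 0 and below it.

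After doxycycline 857 genes were at least 8-fold higher in the activator line than in the control line, and 16 of them (1.87%) were higher and 3 (0.350%) lower before it. These genes were chosen for a high level in the induced activator libraries, which can by itself carry a gene past the filter on low counts, and 168 had no count in the uninduced activator line and 204 none in the uninduced control line, so these shares cannot be read against those of all genes. Of the 16, 5 were satellite models. In the fits that left out 1 library, 1014 to 1017 genes were higher by that much. Of these, without activator replicate 1, 8 were higher and 6 lower, without activator replicate 2, 9 and 2, and without control replicate 2, 10 and 4. For the 844 others the median level was 0.0495 CPM in the uninduced activator line and 0.0508 CPM in the uninduced control line, and at such levels a small difference was not detectable at this depth. The most abundant was AC149090.1, on an unplaced scaffold, with 231, 226 and 236 CPM in the activator libraries, against 162, 169.5 and 165 CPM in the control libraries (log2 0.48, adjusted p = 1.63e-24). Pisd-ps1, a pseudogene of Pisd on chromosome 11, had 12.7, 12.7 and 12.3 CPM in activator libraries and 9.16, 8.34 and 8.66 CPM in control libraries (log2 0.53, adjusted p = 3.53e-07), while Pisd itself, which encodes a phospholipid decarboxylase, did not pass the test (21.05, 23.3 and 21.9 CPM in activator libraries, 22.5, 23.6 and 24.6 CPM in control libraries). Pseudogenes share sequence with their parent gene, so their counts are uncertain. 3110099E03Rik went the other way, with no count in the activator libraries and 22 in the control libraries before doxycycline.

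Neighbouring genes were compared in windows of 20 tested genes. Chromosome medians lay between -0.02 (chromosome 6) and 0.03 (chromosome 18) on the log2 scale. The highest window median, 0.26, was at chr1:87945119-88389293, where the Ugt1a genes overlap and share exons, and 2 of its 20 genes were called. The window at chr9:3000282-7208205, which holds the satellite models and the genes after them, had a median of 0.23 with 6 higher and 2 lower. In it Alkbh8 (30.2, 28.1 and 29.6 CPM in activator libraries, 25.4, 24.5 and 25.3 CPM in control libraries, log2 0.23) and Cwf19l2 (log2 0.23, call lost in 1 of 17 other settings) were higher, while Gucy1a2 was lower (log2 -0.44). The lowest median, -0.32, was at chr3:103781914-104220374 with 6 genes lower, among them Magi3 (114, 120.1 and 114 CPM in activator libraries, 151, 150.4 and 149 CPM in control libraries, log2 -0.37) and gene models that lie within its span, so their counts can come from 1 gene. At chr7:83932857-89854359 the median was -0.25, with 11 genes lower and 1 higher, among them Cemip and the protease gene Prss23 (79.1, 81.2 and 81.6 CPM in activator libraries, 132, 140.1 and 136 CPM in control libraries, log2 -0.75). In the first 1 Mb of assembled sequence of each chromosome, next to the satellite arrays, 17 of 161 genes other than the satellite models were higher (10.6%) and 7 lower (4.35%), beside 8.92% and 10.5% of all genes tested. Over the first 10 Mb, 109 of 1160 genes were higher (9.40%) and 113 lower (9.74%).

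The number of genes detected did not separate the lines. Thinned to 14928765 counts, the activator libraries had 20115, 19995 and 20049 genes with a count and the control libraries 20100, 20029 and 20107, which overlapped (exact two-sided permutation test, p = 0.7). The mean difference was -25.8 genes, and 3.32 without activator replicate 2. The induced activator libraries, thinned alike, had 22094, 22251 and 22360.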

How the data were processed

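Whole-number counts per gene, deposited by the authors as 1 table, covered 47937 gene IDs and all 18 libraries. Per the labels' protocols, total RNA was treated with DNase and made into stranded libraries depleted of rRNA and read from both ends. The build was mm10, per the submitters' processing notes. The sources used here name no aligner, counter, annotation or strand setting, so overlapping, antisense and near-identical genes are uncertain. Symbols came from GENCODE M21 (47310 IDs matched without version).

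Counts were tested in R 4.3.3 with edgeR 4.0.16 (TMM, filterByExpr, robust quasi-likelihood fit, 6 groups, 12 residual degrees of freedom), and DESeq2 1.42.0 and limma 3.58.1 served as alternatives. Alternatives were other scalings, filters and sets of libraries, the replicate block and leaving out each library. The fit was tested on simulated data. SE is the log2 fold divided by the square root of F. Spread between libraries was low (common coefficient 0.0246), and depth was 14928765 to 25262912 counts per library. Satellite models were found from transcript sequence. Library pairs of a group differed beyond counting noise. Members and lists were chosen with earlier results of these data known, and fold ranks of these libraries chose the largest differences named. Named genes were the 12 highest and 12 lowest called genes at 5 CPM or more, up to 6 per line without counts, up to 4 per list or region, satellite models, Rela and sex chromosome markers; some genes under this rule are not reported here. Other genes named, and Pisd, Srebf1 and Srebf2, were chosen after their values were seen.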

Additional observations from a re-analysis of the deposited data

Results flagged for a closer look

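These results differed between the uninduced and the induced line contrast by a test of the difference itself (edgeR, adjusted over all genes, where 63.7% of genes tested passed). The summed satellite models were higher in the activator line in both, and the induced log2 fold exceeded the uninduced one by 8.70 (adjusted p = 1.19e-09). Among the 24 genes with the largest or smallest log2 fold, these 4 were called in opposite directions in both contrasts. Tnfaip2 had a log2 fold of 0.87 without and -0.69 with doxycycline, a difference of -1.56. Ppm1h had 0.74 and -1.10, a difference of -1.84. Ankrd1 had 0.70 and -1.18, a difference of -1.88. Pkhd1l1 had -0.96 and 0.42, a difference of 1.38, and with total counts alone its induced log2 fold was 0.18 and not called (adjusted p = 0.0679). Groups of 3 libraries were too small for a check of single outlying libraries.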

How the results depend on the processing

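The satellite sum stayed higher and called in all 18 alternatives (log2 2.04 to 2.22). Leaving out 1 library gave 929 to 1295 higher and 1344 to 1550 lower genes. Without activator replicate 1, 2 or 3, or control replicate 1, 2 or 3, 8 to 14 of the genes raised at least 8-fold after doxycycline (1014 to 1017 in these fits, against 857) were higher before it and 2 to 6 lower. DESeq2 put 1 of them lower and limma-voom 6. Their number was 2270 with no filter on low counts and 567 with at least 1 CPM in 3 libraries. Under total counts alone 3954 genes were higher in the induced contrast, against 6161, and uninduced calls were 50.3% higher, against 45.8%. DESeq2 called 987 genes higher and 1395 lower before doxycycline, and 7 NRF2 genes higher. With windows of 40 genes the extreme medians were 0.13 and -0.17. With up to 3 counts allowed, 2 genes were nearly silent in the control line and 1 in the activator line, and leaving out 1 library gave 0 or 1 with no count in the control line. The sign of the difference in genes detected turned at 5 counts (24.0 more in the activator line) and among libraries left out (-57.2 to 3.32). With 1 library left out the uncalled fitted value of Gm10720, from at most 1 count, was -2.38 to 0, and uncalled log2 folds turned sign for Xist (-0.089 to 0.58, with -0.015), Ddx3y (-0.008 to 0.043) and Eif2s3y (-0.045 to 0.021, with 0.003). The cause of these shifts was not tested.

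Same-numbered libraries of both lines deviated from their group means with correlations of 0.029, 0.075 and 0.0035. Libraries of different numbers had correlations from -0.064 to 0.035. Activator replicate 3 correlated more with control replicate 1 (0.035) than with its own number. With 3 libraries a group these values cannot decide whether the numbers pair the samples. With the replicate block 1532 genes were higher and 1785 lower, and the satellite sum kept its log2 fold of 2.13 (adjusted p = 2.12e-06). Of 201 named genes called, 157 kept call and direction in all 17 fits, and 44 lost the call in at least 1, among them Il33, Gm10801, Gm21738 and the mitochondrial rRNA genes. Depth limits genes under 1 CPM.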
